A study of Mus musculus with 11 samples.

Results

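The 10 genes described here carry out MHC class I antigen presentation: B2m, H2-K1, H2-D1, Tap1, Tap2, Tapbp, Psmb8, Psmb9, Nlrc5 and Erap1. They were taken by name out of 21775 protein-coding genes. Peaks were assigned to them from ATAC-seq peak lists, ATAC-seq being an assay in which a transposase inserts adapters into open DNA. A peak counted for a gene if it lay inside it, within 1000 bp of an end, or if the nearest protein-coding gene end within 50 kb was its own. By this rule the genes held 7 of 14731 naive peaks, 8 of 10861 day 15 peaks and 4 of 3352 day 30 peaks, which fall into 10 separate regions.

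The cells were alveolar macrophages, which reside in the airspaces of the lung, sorted from C57BL/6 mice. Mice without tumours gave 4 naive samples. The day 15 and day 30 groups had 4 and 3 samples from mice injected through the tail vein with KP or KP-GFP cells, KP being a lung adenocarcinoma line, and the labels do not say which of these each mouse received. The transplanted foci are thus a model of tumour growth after injection of cultured cells, and the labels state neither sex nor age. Each group had 1 peak list, and how its samples were combined in it is not stated. No value below therefore has a replicate error, and no p-value between groups could be given.

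Class I molecules show peptides from inside the cell to CD8 T cells. The proteasome cuts proteins into peptides, and its interferon-inducible subunits Psmb8 and Psmb9 change which peptides are made. Tap1 and Tap2 pump the peptides into the endoplasmic reticulum, Erap1 trims them, and Tapbp, called tapasin, holds the empty class I molecule at the pump until a peptide fits. H2-K1 and H2-D1 are the classical heavy chains of this mouse strain and B2m is the light chain that all of them need. Nlrc5 is a coactivator that works through the SXY module of class I promoters, where RFX, CREB/ATF and NF-Y proteins bind side by side.

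Start-site windows of 5 genes are shown because peaks covered them in at least 1 list and because they carry letters of this module or of an interferon-stimulated element. They run from 250 bases before to 50 bases after the annotated start, 5′ to 3′ along the gene, from RefSeq on GRCm38.p6 (the same build as mm10). Of the 10 genes, 8 had a window in the RefSeq table. Capitals mark CCAAT or its reverse ATTGG, the Y box bound by NF-Y; TGACG or its reverse CGTCA, the core of the X2 box; GGGGATTCC, a kappa B site; and GAAANNGAA or GAANNGAAA on either strand, forms of the interferon-stimulated response element. All letters were searched on both strands. The B2m window is chr2:122147437-122147736 on the plus strand, H2-K1 is chr17:34000298-34000597 on the minus strand and H2-D1 is chr17:35262844-35263143 on the plus strand. The Tap1 window, chr17:34187306-34187605 on the plus strand, shares 275 bases with that of Psmb9, which is read the other way. The Erap1 window is chr13:74639603-74639902 on the plus strand.
B2m: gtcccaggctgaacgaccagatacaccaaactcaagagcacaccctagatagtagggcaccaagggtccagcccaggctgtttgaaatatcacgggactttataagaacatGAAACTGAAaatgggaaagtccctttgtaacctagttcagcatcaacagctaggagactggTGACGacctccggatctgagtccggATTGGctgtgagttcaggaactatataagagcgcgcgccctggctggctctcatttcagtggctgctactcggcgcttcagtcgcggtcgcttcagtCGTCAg
H2-K1: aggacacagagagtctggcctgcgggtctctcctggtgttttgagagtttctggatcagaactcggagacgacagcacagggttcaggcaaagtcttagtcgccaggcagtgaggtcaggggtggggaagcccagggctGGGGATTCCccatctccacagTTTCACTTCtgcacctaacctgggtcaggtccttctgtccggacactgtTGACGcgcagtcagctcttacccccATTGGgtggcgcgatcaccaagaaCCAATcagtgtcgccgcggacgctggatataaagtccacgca
H2-D1: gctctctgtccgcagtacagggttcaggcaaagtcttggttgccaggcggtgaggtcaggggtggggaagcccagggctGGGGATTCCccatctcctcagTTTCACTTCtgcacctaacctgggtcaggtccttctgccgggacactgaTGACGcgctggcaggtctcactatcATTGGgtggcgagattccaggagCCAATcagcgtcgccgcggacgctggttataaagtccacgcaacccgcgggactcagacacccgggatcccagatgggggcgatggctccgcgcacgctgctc
Tap1: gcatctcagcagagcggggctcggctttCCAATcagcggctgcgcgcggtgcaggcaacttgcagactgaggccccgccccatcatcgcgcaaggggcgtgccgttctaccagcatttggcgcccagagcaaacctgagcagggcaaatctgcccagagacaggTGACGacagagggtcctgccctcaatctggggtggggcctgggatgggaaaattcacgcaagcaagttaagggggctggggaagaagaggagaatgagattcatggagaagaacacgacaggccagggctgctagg
Erap1: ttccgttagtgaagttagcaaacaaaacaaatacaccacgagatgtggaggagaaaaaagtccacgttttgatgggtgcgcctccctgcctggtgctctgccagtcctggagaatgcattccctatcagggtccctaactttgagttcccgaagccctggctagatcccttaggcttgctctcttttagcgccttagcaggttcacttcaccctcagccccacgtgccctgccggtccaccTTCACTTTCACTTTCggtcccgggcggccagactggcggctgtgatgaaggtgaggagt

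The genes of the light chain, B2m, and of the classical heavy chains, H2-K1 and H2-D1, had TGACG followed by ATTGG at the same spacing. It was 25 bases from first letter to first letter, a distance looked for after these sequences had been seen. TGACG began 78 bases before the annotated start in B2m, 41 in H2-K1 and 101 in H2-D1. Among all 32851 RefSeq windows, 19 windows at 16 genes had this pair at that spacing, or 0.0578%. The pair was counted in this order along the gene only, and its reverse, CCAAT followed by CGTCA, was not counted. Alone, CCAAT was found in 37.4% of all windows and TGACG in 20.8%. The kappa B letters GGGGATTCC, found in 0.25% of all windows, were in H2-K1 and H2-D1. GAAANNGAA, in 8.56% of all windows, was in B2m and Erap1. In Erap1 2 overlapping matches began 9 and 3 bases before the start site, and only the second crossed it. GAANNGAAA, in 7.52% of windows and searched only after the sequences had been seen, was in H2-K1 and H2-D1. A match is a run of letters and does not show that a protein binds there.

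The windows of H2-K1 and H2-D1 were 88.3% identical over 239 aligned bases. Their annotated starts differ in place, since TATAAA began 35 bases after the start in H2-K1 and 26 bases before it in H2-D1. Distances from the H2-K1 start are therefore not on the same footing as those of H2-D1. RefSeq has 2 start-site windows for H2-K1, and the first listed was used for its sequence and all its distances. The start sites of Tap1 and Psmb9 lie 226 bp apart and point away from each other, and both windows held the same CCAAT, the same TGACG and the same GC box (the letters GGGCGG, in 35.7% of all windows). The window of Tapbp held ATTGG at 248 and 165 bases before the start, both outside its peak. The window of Psmb8 had none of the letters that are in capitals above. The full CRE letters TGACGTCA, the PU.1 letters GAGGAAGT, the ETS letters CCGGAAGT, the STAT letters TTCCNGGAA and the kappa B variant GGGATTTCC were in none of the 8 windows, and in 1.79%, 3.20%, 3.89%, 1.15% and 0.323% of all windows.

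A gene is said below to have a boundary peak if a peak came within 1000 bp of either end. Of the 10 class I genes 7, 8 and 4 had one in the naive, day 15 and day 30 lists, against 34.9%, 29.7% and 12.9% of all protein-coding genes. The order of these counts depends on the lengths of the lists: when the 3352 peaks with the highest −log10 p of each list were taken, the counts were 2 (B2m and H2-D1), 4 and 4 (B2m, H2-K1, H2-D1 and Erap1 both times), so that the naive count was the lowest. The share of all genes is not given for the shortened naive and day 15 lists. The equal-length counts therefore cannot be read as a result about the class I genes. The calls that follow are from the full lists. At day 15, 6 of the 7 naive genes had one as well (B2m, H2-K1, H2-D1, Tap1, Psmb9 and Erap1), where 79.6% of all genes with one in the naive list did. Tap1 and Psmb9 share 1 peak across both start sites in each of these lists, so their calls are not separate. Tapbp and Psmb8 had one at day 15 and not in the naive list, 2 of 3 genes, where 3.07% of all genes without a naive boundary peak did. Nlrc5 had one in the naive list and not at day 15. At day 30, B2m, H2-K1, H2-D1 and Erap1 still had one, 4 of 7, where 36.5% of all genes did, and 0 of 3 were new, where 0.247% were. Between day 15 and day 30, 4 of 8 were kept, where 42.1% of all genes were, and 0 of 2 were new, where 0.51% were. Tap2 had none in any list. The share kept at day 15 is near that of all genes, the shares kept at day 30 rest on 4 genes and the share new at day 15 rests on 2. Of the 7 naive peaks, 5 overlapped a day 15 peak, as 64.1% of all naive peaks did, and 4 overlapped a day 30 peak, as 21.7% did. These shares depend on the pileup. Of naive peaks with the pileup of B2m, H2-D1, Erap1 and H2-K1, the 4 kept at day 30, 85.1%, 54.5%, 29.2% and 10.4% overlapped a day 30 peak. Shares for the regions that were not kept are given with each region below. Conversely, 5 of the 8 day 15 peaks and 4 of the 4 day 30 peaks overlapped a naive peak, as 87.2% and 96.5% of their lists did.

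The lists were not equally deep. Background levels worked out from the folds and p-values came to 39.2, 93.5 and 82.2 tags per 10 kb of genome for naive, day 15 and day 30, so the tumour lists had 2.38 and 2.1 times the naive depth. The lowest summit pileup of any peak was 6, 9 and 9 tags, the summit pileup being the number of extended tags over a peak's highest point. Across regions found in both lists, the pileup per unit of depth was lower than in the naive list in 99.6% of 9104 regions at day 15 and in 99.7% of 3077 at day 30. The median ratio was 0.449 at day 15 and 0.3 at day 30, and each class I region is set beside it. In the same order of lists, 6, 3 and 1 of 14 alveolar macrophage markers had a boundary peak, and 6, 6 and 2 of 8 general macrophage markers did. For these and the marker counts that follow, the shares of all protein-coding genes were 34.9%, 29.7% and 12.9%. Of the 14 alveolar macrophage markers, Bhlhe40 had a boundary peak in every list and Lpl in the naive and day 15 lists. Pparg, Itgax, Ear2 and Cidec had one in the naive list alone and Mrc1 at day 15 alone. Siglecf, Marco, Fabp4, Chil3, Car4, Plet1 and Abcg1 had none in any list. Of 8 T cell markers 2, 2 and 0 had one, of 6 neutrophil markers 1 in each list and of 5 dendritic cell markers 1, 1 and 0. B cell, epithelial and endothelial markers, 5, 7 and 4 genes, had none. The part that a different mix of cells may have in the values below was not tested. Nor was that of a difference between the lists as a whole in signal over background, which 1 list per group cannot separate. In sorted bulk samples fewer cells with an open site and less opening per cell cannot be told apart.

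**Figure D1:**
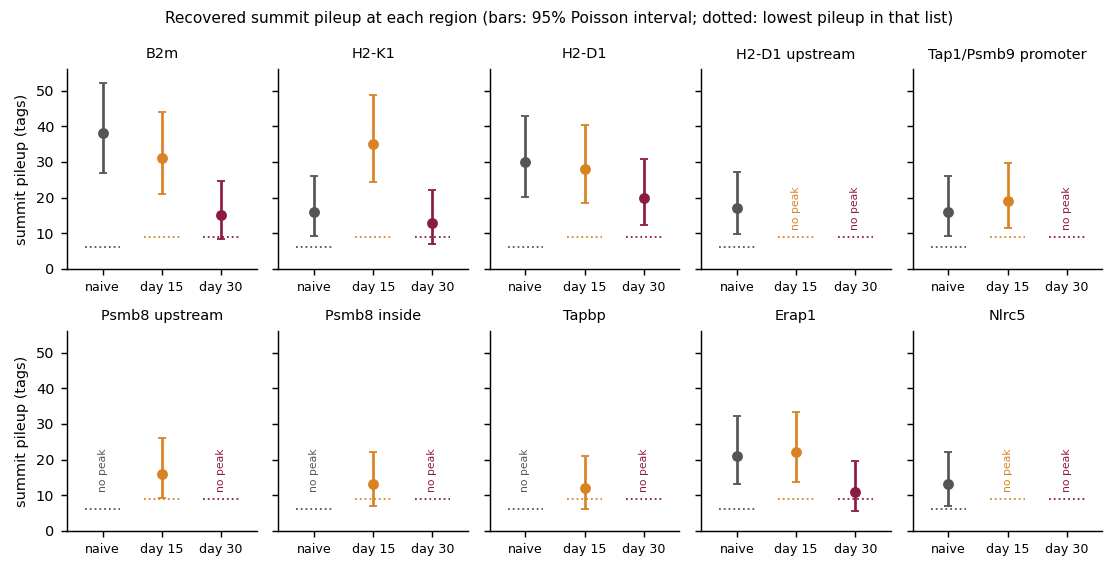
Summit pileup in tags (vertical axis) at each of the 10 class I regions in the naive, day 15 and day 30 lists, with 95% Poisson intervals for counting error and dotted lines at the lowest pileup of any peak in the same list (6, 9 and 9 tags). Tags are not scaled by depth, which was 2.38 and 2.1 times that of the naive list at day 15 and day 30. B2m, H2-K1, H2-D1 and Erap1 have a point in every list, and H2-K1 is the region whose day 15 point, 35 tags, stands highest above its naive point, 16 tags. Per unit of depth its day 15 pileup was 0.918 of the naive one.

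B2m, the light chain, had a peak at its start in every list. It was at chr2:122147407-122148083 in the naive list, chr2:122147431-122148036 at day 15 and chr2:122147406-122147605 at day 30. The summit pileup was 38, 31 and 15 tags, with 95% Poisson intervals of 26.9 to 52.2, 21.1 to 44.0 and 8.40 to 24.7. All intervals here and below cover counting error only, and since a summit is the highest point of its peak they are too narrow even for that. The authors' fold over local background was 9.95, 6.84 and 4.68 and the −log10 p 29.4, 18.9 and 8.16. All 3 measures were thus highest in the naive list and lowest at day 30. Per unit of depth the day 15 pileup was 0.342 of the naive one (95% interval 0.206 to 0.565) and 84.1% of shared regions had a higher ratio. At day 30 it was 0.188 of the naive one (0.0962 to 0.350), and 93.0% of shared regions had a higher ratio. Both ratios were below the median of all shared regions, and both intervals included that median. Of the shared regions with the same naive pileup of 38 tags, B2m included, 47 of 72 had at least its 31 tags at day 15 and 51 of 60 at least its 15 tags at day 30.

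The B2m peak was also narrower at day 30, at 200 bp, than at day 15, at 606 bp, or in the naive list, at 677 bp; 200 bp is the shortest peak in any of the 3 lists. Its summit lay 10, 93 and 154 bp before the start for naive, day 15 and day 30. The day 30 peak ended 82 bp before the start. It covered GAAACTGAA, which began 139 bases before the start, and not TGACG and ATTGG, at 78 and 53 bases, all of which lay inside the naive and day 15 peaks.

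H2-K1, a classical heavy chain, had the highest ratio of day 15 to naive pileup among the 5 class I regions found in both lists. Its peak was at chr17:34000151-34000578 in the naive list, chr17:34000197-34000520 at day 15 and chr17:34000266-34000538 at day 30. The summit pileup was 16, 35 and 13 tags, with intervals of 9.15 to 26, 24.4 to 48.7 and 6.92 to 22.2. The local background was 1.44, 3.28 and 2.04 tags, the fold 6.97, 8.41 and 4.61 and the −log10 p 12.4, 24.4 and 7.43. Day 15 was highest by pileup, fold and −log10 p. H2-K1 alone of the 5 class I regions shared with day 15 had a day 15 fold above its naive fold, as did 11.5% of all shared regions.

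Per unit of depth, the day 15 pileup of H2-K1 was 0.918 of the naive one (95% interval 0.495 to 1.78), and 78 of the 9104 shared regions, or 0.857%, had a higher ratio. Set against the median of all shared regions it was 2.04 times as high (1.10 to 3.95). Of the 473 shared regions with a naive pileup of 16 tags, H2-K1 included, 1 had a day 15 pileup of 35 tags or more, and their median was 18. H2-K1 is therefore the only one of them at this level. At day 30 the ratio was 0.388 (0.172 to 0.859), with 22.4% of shared regions higher, and 64 of 78 shared regions with a naive pileup of 16 tags had at least its 13 tags. With 1 list per group these values have no replicate check, and the labels do not say how reads that match several class I genes were handled. The part of such reads in the result was not tested.

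H2-D1, the other classical heavy chain, had peaks at chr17:35262705-35263191 in the naive list, chr17:35262692-35263156 at day 15 and chr17:35262758-35263123 at day 30. Their pileups were 30, 28 and 20 tags, with intervals of 20.2 to 42.8, 18.6 to 40.5 and 12.2 to 30.9, their folds 8.29, 6.42 and 6.03 and their −log10 p 21.5, 16.6 and 12.5. Per unit of depth, the day 15 pileup was 0.392 of the naive one (0.225 to 0.678) and the day 30 pileup 0.318 (0.171 to 0.579), with 69.5% and 41.1% of shared regions higher. Both intervals include the medians of 0.449 and 0.3. Of the shared regions with a naive pileup of 30 tags, 87 of 166 had at least its 28 tags at day 15 and 28 of 91 at least its 20 tags at day 30. H2-D1 had the highest day 30 pileup of the class I genes, with 27.8% of day 30 peaks higher by −log10 p. The kappa B, GAANNGAAA, TGACG and CCAAT matches of both heavy chains lay inside their peaks in all 3 lists.

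The intervals of the H2-K1 and H2-D1 ratios at day 15 overlap, with pileups of 35 over 16 tags for H2-K1 and 28 over 30 for H2-D1. H2-D1 had a further naive peak at chr17:35259209-35259417, upstream of the gene and 3677 bp from its lower end, with 17 tags and a fold of 4.92. It had no counterpart at day 15 or day 30. Of the 684 naive peaks with 17 tags, 74.7% overlapped a day 15 peak and 15.5% a day 30 peak.

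**Figure D2:**
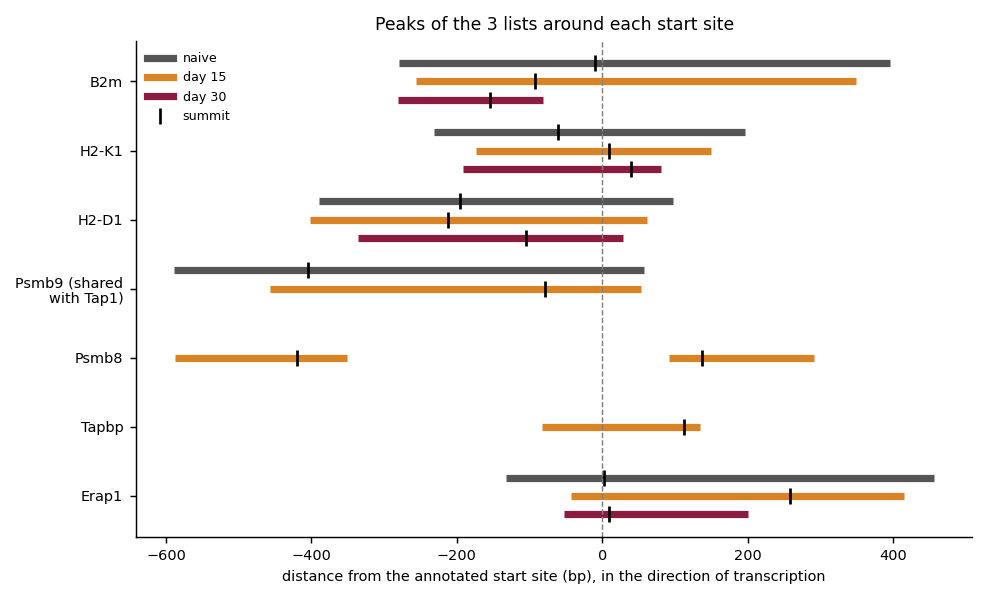
Extent of each peak along the gene, as the distance in bp from the annotated start site (horizontal axis, dashed line at the start), in the naive, day 15 and day 30 lists, with summits as black ticks. The B2m peak of day 30 ends 82 bp before the start, and the 2 Psmb8 peaks of day 15 lie on either side of the start without covering it.

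Psmb9, Tap1, Psmb8 and Tap2 follow each other on chromosome 17 in a stretch of 34.3 kb, chr17:34182030-34216321. It held 1, 3 and 0 peaks for naive, day 15 and day 30. The naive peak, chr17:34187273-34187919, covered the start sites of both Psmb9, an immunoproteasome subunit, and Tap1, a subunit of the peptide pump. It had 16 tags (9.15 to 26), a fold of 7.52, a −log10 p of 13.4 and its summit 179 bp inside Tap1. At day 15 the peak was at chr17:34187277-34187787, with 19 tags (11.4 to 29.7), a fold of 5.52 and a −log10 p of 11.1. Its summit then lay between the start sites, 79 bp from that of Psmb9 and 147 bp from that of Tap1. Per unit of depth it was 0.498 of the naive pileup (0.243 to 1.04), with 35.9% of shared regions higher, and 221 of the 473 shared regions with a naive pileup of 16 tags had at least its 19 tags. There was no such peak at day 30, where the nearest peak was 62434 bp from Psmb9. Of the 786 naive peaks with 16 tags, 10.4% overlapped a day 30 peak.

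Psmb8, the other inducible proteasome subunit among the 10 genes, had 2 peaks at day 15 and none in the other lists. The peak upstream, at chr17:34197608-34197844, had 16 tags (9.15 to 26), a fold of 5.09 and a −log10 p of 9.23. It lay 351 bp before the gene and also within 1000 bp of the far end of Tap1, so that it counts for both genes. The peak inside the gene, at chr17:34198287-34198486, began 92 bp after the start and had 13 tags (6.92 to 22.2), a fold of 4.17 and a −log10 p of 6.67. Of the day 15 peaks with 16 and 13 tags, 78.8% of 744 and 67.7% of 530 overlapped a naive peak, so peaks this low were mostly, but not always, found in both lists. Tap2, the partner of Tap1 in the pump, was 16560 bp from the nearest naive peak, 5993 bp from the nearest day 15 peak and 84883 bp from the nearest day 30 peak.

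Tapbp, which encodes tapasin, had a peak across its start at day 15 alone, at chr17:33919395-33919613. It had 12 tags (6.20 to 21.0) and a fold of 3.28, with a −log10 p of 4.85 and a −log10 q of 2.00. It was among the weakest of its list, in which 99.9% of peaks had a higher −log10 p. Of the 331 day 15 peaks with 12 tags, 61.9% overlapped a naive peak. The nearest naive and day 30 peaks lay 3259 and 10021 bp from the gene.

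Erap1, the trimming peptidase, had a peak over its start in every list, at chr13:74639721-74640310 in the naive list, chr13:74639810-74640268 at day 15 and chr13:74639801-74640053 at day 30. The pileup was 21, 22 and 11 tags, with intervals of 13 to 32.1, 13.8 to 33.3 and 5.49 to 19.7, the fold was 8.80, 7.14 and 4.29 and the −log10 p 17.8, 15.4 and 6.33. Per unit of depth, the day 15 pileup was 0.439 of the naive one (0.231 to 0.840) and the day 30 pileup 0.250 (0.109 to 0.542), with 53.8% and 69.8% of shared regions higher. Erap1 thus sat near the middle of all shared regions at day 15. Of the shared regions with a naive pileup of 21 tags, 192 of 365 had at least its 22 tags at day 15. At day 30 no such region was below it: all 123 had at least its 11 tags, with a median of 16. It was a weak peak of the day 30 list, with 96.4% of its list higher by −log10 p. The summit lay 2, 259 and 9 bp after the start for naive, day 15 and day 30. The overlapping GAAANNGAA matches at the start lay inside all 3 peaks.

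Nlrc5, the coactivator of class I promoters, had a peak in the naive list alone, at chr8:94434176-94434446 across the lower end of the gene. It had 13 tags (6.92 to 22.2), a fold of 6.80 and a −log10 p of 11. The nearest day 15 and day 30 peaks were 46735 and 68495 bp from the gene. Of the 1020 naive peaks with 13 tags, 49.7% overlapped a day 15 peak and 5.0% a day 30 peak.

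Sums can be given only over regions called in both lists, which leaves out Tapbp, both Psmb8 sites, Nlrc5, the upstream H2-D1 site and, at day 30, the Tap1/Psmb9 promoter, so they do not describe the 10 genes as a whole. The summit pileups of the 5 regions shared at day 15 summed to 135 tags at day 15 and 121 in the naive list, or 0.468 per unit of depth (95% interval 0.363 to 0.603), with a median of 0.439 beside 0.449 over all shared regions. Those of the 4 regions shared at day 30 summed to 59 tags at day 30 and 105 in the naive list, or 0.268 (0.191 to 0.372), with a median of 0.284 beside 0.3. In each comparison 2 of the class I regions were above the median of all shared regions, H2-K1 and the Tap1/Psmb9 promoter at day 15 and H2-K1 and H2-D1 at day 30. Peaks of the tumour lists had at least 9 tags, so shared regions with a low naive pileup cannot reach the lowest ratios. Among regions of the same naive pileup, H2-K1 at day 30 was below the median, with 13 tags beside 14. H2-D1 at day 30 was above it, with 20 beside 18. At day 15, H2-K1 had 35 tags and the Tap1/Psmb9 promoter 19, both beside 18. The day 15 and day 30 ratios share the naive list. Apart from H2-K1, the class I regions lay between 0.761 and 1.11 times that median at day 15.

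**Figure D3:**
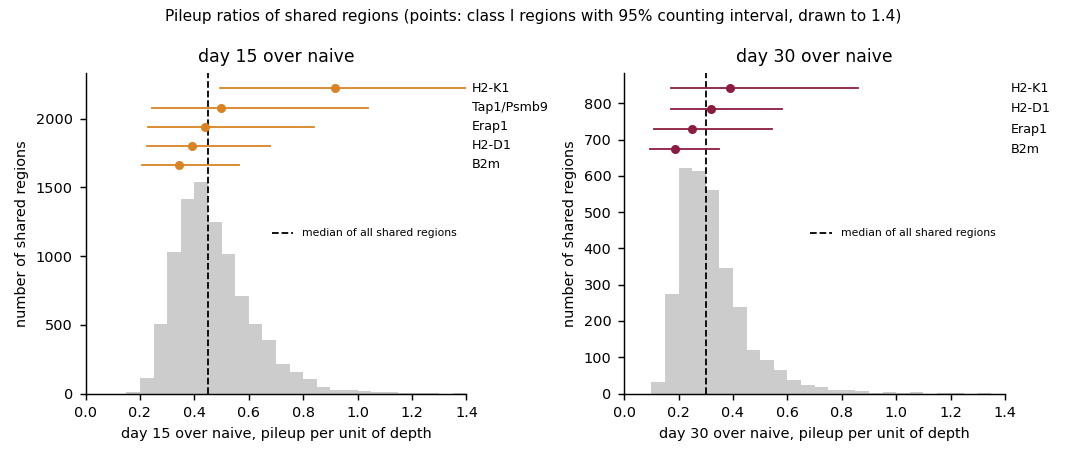
Number of regions shared with the naive list (vertical axis) by the pileup ratio per unit of depth (horizontal axis), at day 15 over naive on the left and day 30 over naive on the right, with the median of all shared regions dashed (0.449 and 0.3). Points are class I regions with 95% counting intervals, drawn to at most 1.4, and H2-K1 at day 15, at 0.918, lies in the right tail.

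Other genes of the pathway were counted in 4 lists. Boundary peaks were at 6, 6 and 0 of 18 protein-coding class Ib heavy chains and relatives for naive, day 15 and day 30. Of all protein-coding genes, 34.9%, 29.7% and 12.9% had one. The class Ib share, 33.3% in the naive and day 15 lists, was thus near that of all genes in both. H2-Q4, H2-Q6, H2-Q7 and H2-M3, which presents formylated peptides, had one in both the day 15 and naive lists, H2-T22 at day 15 alone and Mr1, which presents vitamin B metabolites, in the naive list alone. Members of the H2-Q and H2-T families are close copies, so their peaks are uncertain for the same reason as those of H2-K1. Of 10 loading and folding helpers 9, 9 and 5 had one, with the chaperones Calr, Canx, Pdia3 and Hspa5 in all 3 lists and Ganab and Uggt1 in the day 15 and naive lists. Calr had 35, 39 and 12 tags in that order and Canx 33, 33 and 23.

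Of 12 proteasome and peptidase genes 8, 6 and 5 had a boundary peak for naive, day 15 and day 30, beside 34.9%, 29.7% and 12.9% of all genes. Psme2 of the proteasome activator, with 38, 36 and 20 tags, and the peptidase Tpp2, with 41, 34 and 29, had one in each, whereas Psme1 and the constitutive subunit Psmb6 had one in the naive list alone. Psmb5, which Psmb8 replaces in the immunoproteasome, had one at day 15 and day 30 only, with 10 and 15 tags, and Lap3 one in each list. Of 22 regulators 18, 15 and 6 did. The interferon pathway genes Irf1, Irf2, Irf9 and Stat2, and Rfxank of the RFX complex, had one in both the day 15 and naive lists and none at day 30. Of the other factors that bind the SXY module, Rfxap, Nfya and Nfyb had one in all 3 lists, Creb1 in the day 15 and naive lists, and Rfx5 and Nfyc in none, named here after their values were seen. The interferon gamma receptor gene Ifngr1, chosen likewise, had 55, 48 and 25 tags. Ifngr2, the gene of the other chain of this receptor, had 17 tags in the naive list and no boundary peak at day 15 or day 30.

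**Figure D4:**
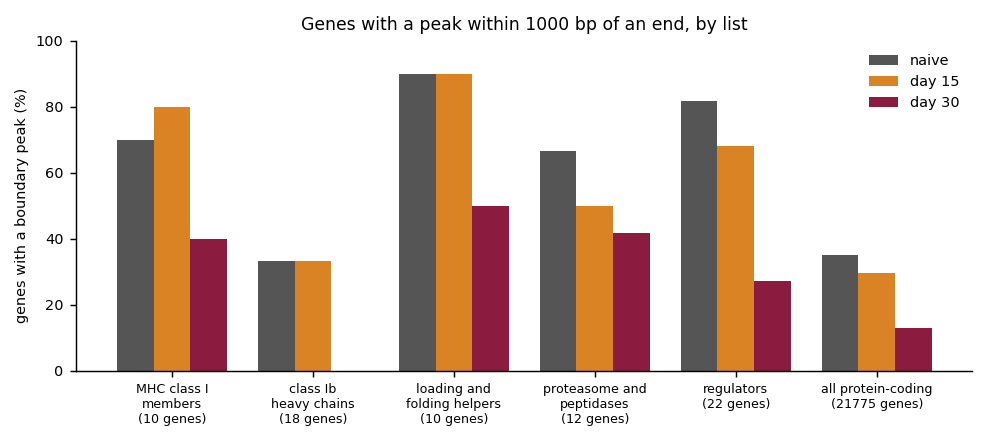
Share of genes with a boundary peak, in percent (vertical axis), for the 10 class I genes, the 4 other lists of the pathway and all 21775 protein-coding genes, for naive, day 15 and day 30. The class I genes stand at 7, 8 and 4 of 10 beside 34.9%, 29.7% and 12.9% of all protein-coding genes, and the class Ib list is at 0 on day 30.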

How the data were processed

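ATAC-seq peak lists of alveolar macrophages were used, 1 deposited list for each of 3 groups that hold 11 samples in all. The submitters' processing notes name Bowtie2 2.3.4.1, MACS2 2.1.1 and the mm10 build. Their settings, read filters, any shift of reads for the transposase and any pooling of samples before peaks were called are not stated there or in the labels. The design text speaks of triplicates where the labels number 4, 4 and 3 samples.

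The lists have 10 columns and no header, and column meanings were taken from the values. The deposited score is 10 times the −log10 q-value without its decimals, for all but a few peaks. The lists also hold the authors' fold over local background, a ratio, and the −log10 p-value and q-value. Each summit pileup was recovered as the whole number for which the fold, pileup plus 1 over background plus 1, gave the upper Poisson tail within 0.001 of the −log10 p. This held for 100.0% of peaks in each list and was tested on simulated data. The commonest background of a list gave its depth. Depth counts the peak caller's tags, not reads.

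Genes came from a RefSeq table of GRCm38.p6, without entries of unplaced scaffolds, told by their place in the table and by positions in the first 3 Mb. The table used here has no exons, so exon and intron are not given. Shared regions are those where each peak overlaps exactly 1 peak of the other list. Poisson, and exact binomial intervals for ratios, are at 95%. Python 3.11.15, scipy 1.17.1, pandas 2.3.3 and Biopython 1.88 were used. All 10 genes were named, with up to 6 genes of each other list in list order, and 1 gene that this names is not reported here. Alternatives were a stricter q, lists of equal length, other windows and distances, a reciprocal overlap and other scalings. The members and lists were chosen with earlier results of these data known.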

Additional observations from a re-analysis of the deposited data

How the results depend on the processing

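Of 32 alternative values, 23 stayed within 1.5 times of the value reported or within its counting interval, and 9 moved. Counts of genes and peaks were the same when peaks needed a −log10 q of at least 2, when the boundary window was 500 or 2000 bp, when the nearest end had to be within 10 kb and when genes of any type were used. With the top 3352 peaks of each list, so that all lists are equally long, the class I genes with a boundary peak numbered 2 in the naive list (B2m and H2-D1), 4 at day 15 and 4 at day 30 (B2m, H2-K1, H2-D1 and Erap1 in both), and the peaks assigned to them likewise numbered 2, 4 and 4. Fewer peaks enter by construction, and the share of all genes in the shortened naive and day 15 lists is not given. Under a reciprocal overlap of 50%, 2 rather than 4 naive peaks had a day 30 counterpart, since the day 30 peaks of B2m and Erap1 cover 29.4% and 42.9% of the naive ones. The summed pileup ratio at day 15 was 1.04 when scaled by the median of all shared regions and 0.827 by the authors' fold, against 0.468 by depth. At day 30 it was 0.894 and 0.577, against 0.268. The median scaling divides every shared region by the same number, so its side of 1 is fixed by that median. No paired analysis was possible because each group has 1 list, and for the same reason no replicate could be left out. Low tag numbers limit single regions: the 95% interval of the H2-K1 ratio at day 15, from 35 tags at day 15 and 16 in the naive list, ran from 0.495 to 1.78.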

Other observations

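TGACG followed by ATTGG at 25 bases along the gene, seen in B2m, H2-K1 and H2-D1, was also in the start-site windows of 12 further protein-coding genes. H2-M3, a class Ib heavy chain, was among them. Boundary peaks were at 9, 9 and 7 of these 12 genes for naive, day 15 and day 30, beside 34.9%, 29.7% and 12.9% of all protein-coding genes. The spacing was chosen after the sequences of the class I genes were seen. H2-M3 had 25 tags at day 15 and 19 in the naive list, and no boundary peak at day 30.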
